A study of Arabidopsis thaliana with 6 samples.

Results

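Rosettes kept for 4 h in light at normal CO2 were set against rosettes kept for 4 h in darkness at low CO2, a day-like against an extended-night-like state in which light and CO2 differ together. The comparison used 4 of the 6 arrays of the series, chosen by their labels: 2 of normal CO2 light and 2 of low CO2 dark, with replicates named A and B. The remaining 2 arrays, of low CO2 light, divide the whole difference into a CO2 step (normal CO2 light minus low CO2 light) and a light step (low CO2 light minus low CO2 dark), which add up to it. Both steps share arrays with the whole difference and with each other, so their values are given side by side. All 6 arrays carried RNA of 1 genotype, pgm (Col-0) of Arabidopsis thaliana, from full rosettes 5 to 6 weeks old. There was no wild type among them. Per the labels, 4 sets of 3 rosettes were harvested and the material of 15 rosettes was ground, which do not add up, and RNA came from 250 mg fresh weight. Whether A and B came from separately grown plants is not stated, so p-values measure the spread between these samples, which may be technical.

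The pgm mutant lacks plastidic phosphoglucomutase and makes almost no starch, so a rosette has little carbon to draw on once photosynthesis stops. Light without CO2 still reaches the photoreceptors but gives little sugar, whereas light with CO2 gives both. Leaf cells short of sugar are known to raise genes of autophagy and amino acid breakdown, and cells supplied with sugar to raise genes of ribosome assembly and growth.

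Values are deposited intensities, 1 per probe set, and 22746 probe sets were tested on the scale log2(intensity + 7.3). A log2 difference on it understates the change of dim genes. A probe set is called where limma's Benjamini-Hochberg adjusted p was under 0.05. The arrays of a group correlated at 0.984 for normal CO2 light and 0.978 for low CO2 dark across probe sets, and array medians lay at 36.1 and 39.55 in normal CO2 light and at 34.55 and 35.1 in low CO2 dark. The ubiquitin control's ratio of 3' to 5' signal, a sign of RNA quality, was 1.69 and 1.95 in normal CO2 light against 1.48 and 1.39 in low CO2 dark. That ratio moved with the groups, and its part in the results was not tested. The GAPDH control's ratio overlapped between the groups, at 0.949 and 1.08 against 1.06 and 1.08.

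The measured leaf markers went with the rosette label, but few markers of other tissues could be named. All 5 measured leaf mesophyll markers of 7 were bright, with a summed intensity of 11490 and 12840 in normal CO2 light against 11520 and 11840 in low CO2 dark. Of 6 root markers 2 were measured, and their summed level was 408.6 and 427.7 against 309.4 and 376.4. Nearly all of it came from PYK10, which lay well above the array medians, while the root-hair expansin EXPA7 lay near background. Whether root tissue was present was not tested. The guard cell regulator FMA, the 1 measured guard cell marker of 4, had 74.6 and 67.5 against 54.9 and 45. No marker moved past the threshold, and whether a shift in cell types contributes to the results was not tested further. In bulk rosettes, fewer cells of a type and less RNA per cell cannot be told apart.

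The whole difference was called for 4655 probe sets, 20.5% of those tested. Of these 2578 were higher in normal CO2 light (11.3%) and 2077 lower (9.13%). At least 2-fold differences made up 1455 of the higher (6.4%) and 1220 of the lower calls (5.36%). The arrays of the groups did not overlap for 13271 probe sets (58.3%), so separation of the arrays alone marks little. The light step was called for 237 probe sets (1.04%), 193 higher (0.849%) and 44 lower (0.193%), and the CO2 step for 3321 (14.6%), 1911 higher (8.4%) and 1410 lower (6.2%). The median of all tested probe sets was 0.03. With a common median set for all arrays, which moves that median to -0.07, 45.7% of the calls were higher, against 55.4% as the values were deposited. The counts rest on all 4 arrays. Leaving 1 of them out leaves its group with a single array, which lowers the precision of the fit whichever array it is. Without normal CO2 light A there were 702 higher and 652 lower calls, without normal CO2 light B 263 and 313, without low CO2 dark A 1372 and 1205, and without low CO2 dark B 1000 and 901.

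The largest rises among named genes reached up to 4.75 on the log2 scale. AT3G22240 had the largest, with 2060.5 and 1662.5 in normal CO2 light, 1147.4 and 199.9 in low CO2 light, and 62.3 and 61.1 in low CO2 dark (difference 4.75 ± 0.71 SE, limma adjusted p = 0.00799). Its low CO2 light arrays lay between the others but far apart from each other. AT3G44450 had 340.6 and 439.4, then 188.0 and 131.9, against 12.6 and 12.6 (4.31 ± 0.22, adjusted p = 0.00126). AT1G73600 had 1626.7 and 1745.3, then 245.9 and 78.6, against 116.5 and 74.4 (4.07 ± 0.49, adjusted p = 0.00478). For AT1G73600 the CO2 step held nearly the whole of it, 3.52 beside 0.55 in the light step, whereas AT3G44450 had 1.26 in the CO2 step and 3.05 in the light step. AT1G06000 had 147.0 and 129.6, then 29.1 and 21.8, against 1.4 and 1.5 in low CO2 dark, which is below the added constant of 7.3 (4.05 ± 0.21, adjusted p = 0.00126). Its size therefore hangs on that constant, at 5.83 with a constant of 1 and 2.35 with 32.

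Of the other 6 in this group, TBL26 (TRICHOME BIREFRINGENCE-LIKE 26, of a family that acetylates cell wall polymers) rose by 3.80 ± 0.46, with 291.9 and 230.2 against 16.5 and 8.0. AT1G13650, AT5G62210, AT5G03350, AT5G59130 and AT4G12830 rose by 3.54, 3.41, 3.39, 3.24 and 3.24. For AT5G62210 the value was 1.98 with a constant of 32. AT4G12830 was the member whose rise lay wholly in the light step, with 391.6 and 222.9, then 328.6 and 370.5, against 29.1 and 21.0, and a CO2 step of -0.23. All 10 rises kept their direction with each of the 4 arrays left out in turn. The call held for 7 of 10 without normal CO2 light A, 5 without normal CO2 light B, 10 without low CO2 dark A and 8 without low CO2 dark B, with adjusted p up to 0.0907, 0.1, 0.045 and 0.0755.

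Over all tested probe sets the largest fall was -7.45 and the largest rise 5.01, both on probe sets without a single gene name. Among named genes the largest fall was that of SIS. This gene, named Salt Induced Serine rich, had 20 and 13.9 in normal CO2 light, 371.8 and 526.8 in low CO2 light, and 1242.9 and 1532.7 in low CO2 dark (-5.85 ± 0.23, adjusted p = 0.00121). All 3 groups lay apart, with -4.23 in the CO2 step and -1.62 in the light step. AT1G72060 had 33.4 and 27.7, then 332.1 and 1169.8, against 634.9 and 1440.6 (-4.68 ± 0.62, adjusted p = 0.00583). AT5G19120 had 91.7 and 128.9, then 1563.0 and 2071.3, against 1966.1 and 2259.8 (-4.19 ± 0.22, adjusted p = 0.00126). AT2G05540 had a light step near 0, with 80.0 and 58.8, then 1137.1 and 1449.1, against 1184.2 and 1424.3 (-4.10 ± 0.20, adjusted p = 0.00126, with -0.02 in that step).

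AT2G20670 and AT3G07350 fell by 4.08 ± 0.33 and 4.05 ± 0.16, with light steps of -0.46 and -1.21. MCCA, which encodes the biotinylated part of a leucine-degrading carboxylase, fell by 4.01 ± 0.69 and is described with its pathway. AT4G27450, AT5G39520 and AT2G28400 differed by -3.98, -3.94 and -3.93. Of the 10 falls, AT2G28400 had the light step (-2.10 ± 0.31) larger than the CO2 step (-1.84 ± 0.31). The call held for 8 of 10 without normal CO2 light A, 8 without normal CO2 light B, 10 without low CO2 dark A and 9 without low CO2 dark B, with adjusted p up to 0.0828, 0.0904, 0.0247 and 0.0569.

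**Figure D1:**
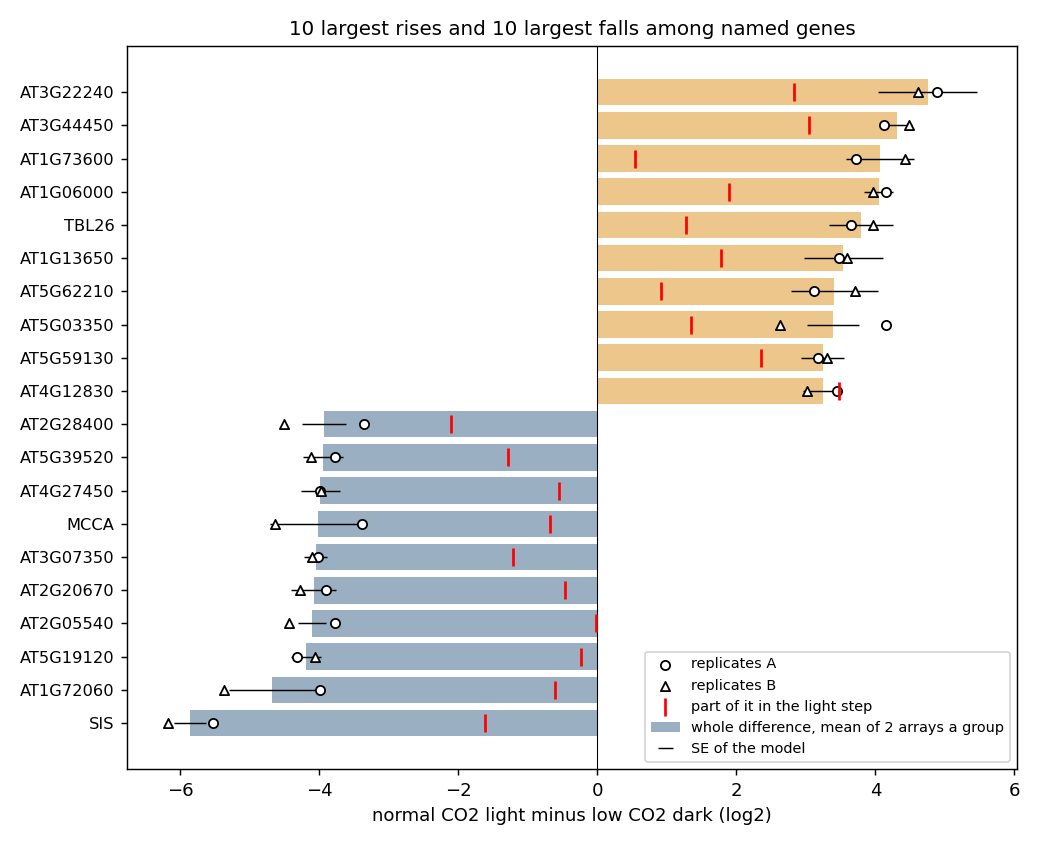
Log2 difference, normal CO2 light minus low CO2 dark, of the 10 largest rises and 10 largest falls among named genes. Bars are the mean over 2 arrays a group with the SE of the model, open circles and triangles are replicates A and B, and red ticks mark the light step. The ticks lie near 0 for AT2G05540 (-0.02) and AT5G19120 (-0.23) and past the end of the bar for AT4G12830 (3.47).

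A second set was defined by the size of its steps: probe sets called over the whole difference with a log2 difference of at least 1, in which the CO2 step and the light step were each under 1. It held 910 probe sets (4.0% of those tested), 460 higher (2.02%) and 450 lower in normal CO2 light (1.98%). They were 19.5% of all calls and 34% of the calls of at least 2-fold. Since measured values chose them, their values are a description with no test. For the higher ones the median was 1.17 over the whole difference, 0.75 in the CO2 step and 0.49 in the light step. For the lower ones it was -1.20, -0.70 and -0.60. Because the steps add up to the whole difference, the rule forces both to share its sign. It also places the low CO2 light mean between the other 2. It sets no least share for either step. The light step ran from 0.02 to 1.0 in the higher and from -1.0 to -0.03 in the lower. It was 6.86% of the whole difference in ILA and 50.2% in GSTU27. Both steps held a share of at least 0.25 in 345 of the 460 and 378 of the 450. The CO2 step was the larger in 315 of the 460 (68.5%) and in 261 of the 450 (58.0%), against 59.6% of all tested probe sets and 74.3% and 69.5% of all higher and lower calls. Neither step was called by itself in 271 and 289 of them. So 560 of the 910 would appear in no list made from the single steps at this threshold. Among all 2675 calls of at least 2-fold the same held for 829. The limits on the steps favour uncalled steps, so the count describes the rule as much as the genes.

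The arrays of all 3 groups followed one another without overlap in 349 of the 460 (75.9%) and 368 of the 450 (81.8%), an order that the limits on the steps favour. The same held for 22.5% of the other higher and 31.2% of the other lower calls of at least 2-fold, and for 10.3% and 12.8% of all tested probe sets with a positive and a negative difference. The median intensity was 83.5 for the higher and 128 for the lower, against 103 and 149 over all higher and lower calls and 39.1 over all tested. At the edge of the set, HCT entered with a whole difference of 1.0 and AT5G66470 with a CO2 step of 1.0, while AT1G14460 (1.0 after rounding) and ALDH3F1 (CO2 step 1.0) lay just outside. On the falling side AT5G19150 (-1.0) and AT5G10650 (CO2 step -1.0) lay just inside, and AT3G56360 (-1.0) and ATG8C (CO2 step -1.0) just outside. Membership therefore turns on small differences for many genes. The set shrank to 142 higher and 191 lower without normal CO2 light A, 57 and 62 without normal CO2 light B, 344 and 346 without low CO2 dark A, and 257 and 267 without low CO2 dark B. With a constant of 32 it held 279 higher and 318 lower.

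**Figure D2:**
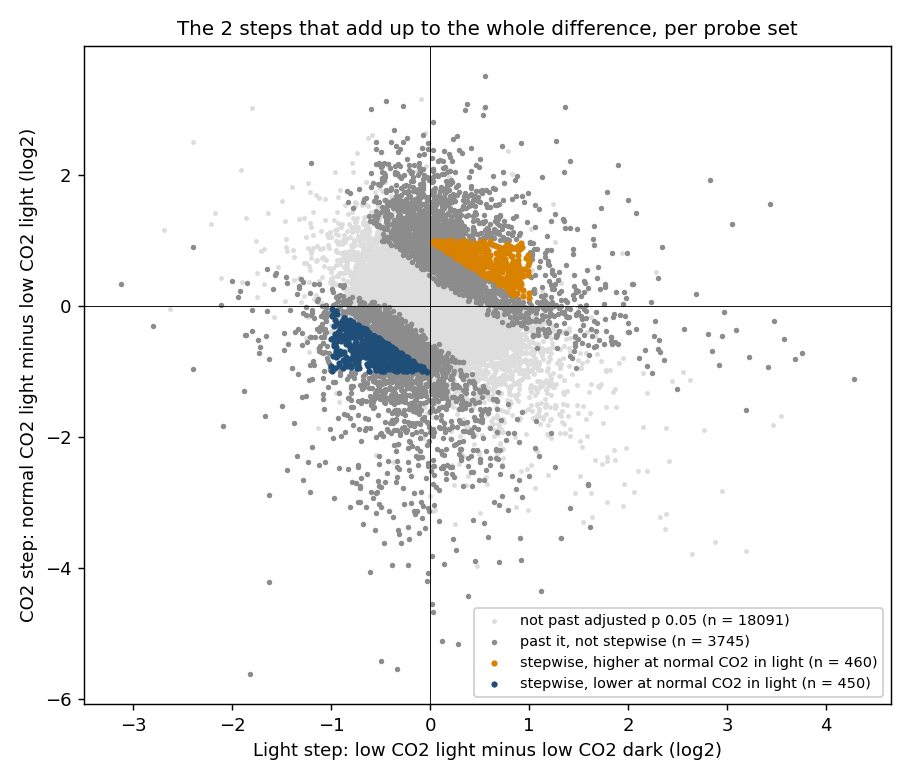
The light step (x axis) and the CO2 step (y axis) of every tested probe set, in log2. Orange and blue mark the 460 higher and 450 lower probe sets whose steps each stayed under 1 while their sum, the whole difference, reached 1, and grey shades mark the other 3745 called and the 18091 not called. The 2 axes share the low CO2 light arrays, so the shape of the cloud is not a relation between light and CO2.

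Among the higher genes of this set, the 10 with the smallest adjusted p included 3 with a given name. CRR21, chlororespiratory reduction 21, an RNA editing factor needed for the chloroplast NDH complex, had 122.9 and 133.7 in normal CO2 light, 79.2 and 69.7 in low CO2 light, and 32.6 and 35.0 in low CO2 dark. FTSZ2-2, of the tubulin-like ring that divides chloroplasts, had 287.9 and 317.8, then 187.6 and 136.8, against 87.1 and 84.4. BGLU44, a beta-glucosidase, had 1223.2 and 1243.9, then 723.5 and 592.5, against 422.2 and 379.1. In each of the 3 the groups lay in the same order without overlap, with whole differences of 1.72, 1.74 and 1.61 and light steps of 0.99, 0.85 and 0.70. The other 7 are known here by locus alone: AT1G49380 (1.56), AT1G36390 (1.74), AT2G46170 (1.5), AT1G74730 (1.33), AT5G19250 (1.35), AT1G12800 (1.28) and AT2G32500 (1.23). AT1G74730 was the brightest, with 1639.1 and 1790.0, then 1217.0 and 1168.2, against 679.5 and 672.3. AT2G32500 leaned most on light, with 0.89 in the light step and 0.34 in the CO2 step.

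The 10 lower genes with the smallest adjusted p had no given name beyond their locus. AT2G46900 had 114.5 and 105.5 in normal CO2 light, 177.6 and 206.1 in low CO2 light, and 367.3 and 380.6 in low CO2 dark. AT3G10770 had 326.4 and 364.4, then 524.7 and 623.4, against 1056.9 and 1069.8. AT4G22360 had 112.3 and 108.2, then 193.6 and 194.5, against 254.5 and 270.3. Whole differences were -1.70, -1.60 and -1.20, and all 10 lay between -1.70 and -1.20 with no overlap between any of the 3 groups. Their light steps ran from -0.42 in AT4G22360 to -0.94 in AT2G46900, and their CO2 steps from -0.72 in AT3G10770 and AT4G15420 to -0.95 in AT5G05100.

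**Figure D3:**
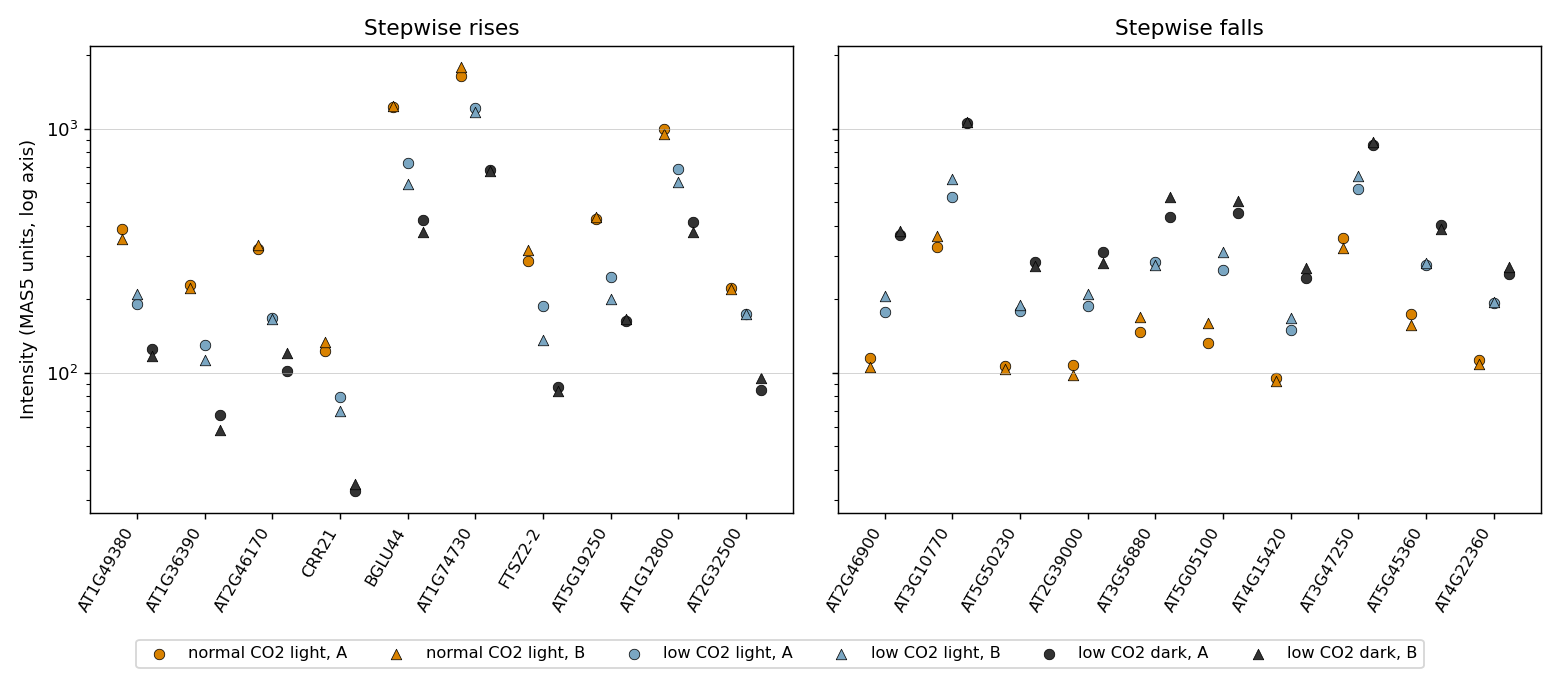
Intensity on each array (log axis, deposited units) of the 10 higher and 10 lower genes with the smallest adjusted p among those whose steps each stayed under 1 on the log2 scale. Orange is normal CO2 light, light blue low CO2 light and black low CO2 dark, with circles for A and triangles for B. In each of the 20 genes the low CO2 light arrays lie between the other groups, an order that the limits on the steps favour.

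Of the 910 probe sets, 66 had 1 gene with a name other than its locus, 35 higher and 31 lower. They are described by role, a grouping made after their values were seen. Of the 35 the call held for 10 without normal CO2 light A, 6 without normal CO2 light B, 20 without low CO2 dark A and 16 without low CO2 dark B, and of the 31 for 15, 8, 22 and 21 in that order (adjusted p up to 0.181). Among the 35 higher, several act in the chloroplast. FTSZ2-1, the close relative of FTSZ2-2, had 278.1 and 319.3, then 173.2 and 150.4, against 135.0 and 138.0 (whole difference 1.09). The RNA splicing factors of the CRM family CFM3A and CFM3B differed by 1.40 and 1.20, and CRR41, another factor of the NDH complex, by 1.24. CCB3, for assembly of cytochrome b6f, had 142.6 and 107.2, then 98.5 and 74.7, against 39.1 and 40.4 (1.48), which was mostly a light step (0.99). The light-harvesting-like protein LIL3:1 had 1325.4 and 962.5, then 878.8 and 1037.4, against 521.3 and 545.2 (1.07), so its normal and low CO2 arrays in light overlapped. Thioredoxin Y2 (ty2) differed by 1.29 and plastidic glycerol-3-phosphate dehydrogenase (GPDHp) by 1.03.

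Enzymes that trim the start of new proteins stood beside them. PDF1B, peptide deformylase 1B, had 230.2 and 319.6, then 184.2 and 197.9, against 92.7 and 100.5 (1.42). The methionine aminopeptidases MAP1D and MAP1C differed by 1.09 and 1.02. In the cell wall, XTH32, a xyloglucan endotransglucosylase, had 309.1 and 231.5, then 163.1 and 137.9, against 103.2 and 72.4 (1.55), and the wall-related TBL41 and the lignin enzyme HCT differed by 1.09 and 1.0. Growth and nucleus were represented by RAPTOR2 (1.1), a partner of the TOR kinase that senses nutrients, NRPB9B (1.04), a subunit of RNA polymerase II, and TEX1 (1.01), of the THO complex of mRNA export. FAC1, AMP deaminase, differed by 1.18, IDH-VI, an isocitrate dehydrogenase, by 1.17, and the uracil DNA glycosylase UNG by 1.11. The rest, GSTU27, GLR3.5, AGL87, SNZ, Mfl1, ILA, 3xHMG-box2, UBP23 and IQD23, lay between 1.02 and 1.40, and the starch genes APL3, SBE2.2 and DPE1 are described with their pathway. Several of these are dim. With a constant of 32 the whole difference was 0.72 for RAPTOR2, 0.68 for NRPB9B, 0.67 for GLR3.5, 0.62 for TBL41, 0.60 for IQD23 and 0.53 for UNG, under the limit of 1. UBP23 lost its call with a common median (0.93).

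Among the 31 lower, several regulate transcription. bHLH121, a basic helix-loop-helix factor of iron homeostasis, had 67.2 and 90.6 in normal CO2 light, 119.6 and 163.2 in low CO2 light, and 302.1 and 253.4 in low CO2 dark (-1.73). EIN3, the factor that carries the ethylene signal to the nucleus, had 216.1 and 298.3, then 353.3 and 335.7, against 694.7 and 641.4 (-1.37). IAA18, an auxin response repressor, had 197.2 and 197.4, then 289.5 and 273.3, against 428.3 and 437.2 (-1.1). For all 3 the light step was the larger one, at -0.95, -0.94 and -0.61 beside CO2 steps of -0.78, -0.43 and -0.50. The SE of a step was 0.22, 0.18 and 0.12, and whether the 2 steps differ was not tested. MYBC1 (-1.58), OBE1 (-1.33), BPC1 (-1.30), the Mediator subunit MED6 (-1.12) and GT2 (-1.04) also belong to transcription or chromatin.

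A further group acts in membrane traffic and protein turnover. ELC, of the ESCRT machinery that sorts ubiquitinated membrane proteins, had 100.3 and 102.7, then 160.0 and 210.5, against 254.6 and 405.6 (-1.60). KEU, keule, a Sec1-type regulator of membrane fusion, had 144.6 and 140.7, then 193.4 and 237.2, against 372.9 and 362.6 (-1.32). UBC28, a ubiquitin-conjugating enzyme, was bright, with 882.8 and 843.0, then 1510.0 and 1757.2, against 1863.3 and 1852.5 (-1.1). For UBC28 the CO2 step was the larger (-0.91), and for KEU the light step (-0.76 ± 0.14 beside -0.56 ± 0.14). AtSec20 and PRA8, both of vesicle traffic, differed by -1.25 and -1.01.

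In metabolism, GME, the GDP-mannose epimerase of ascorbate and cell wall synthesis, had 660.5 and 625.1, then 980.7 and 1541.5, against 1588.0 and 1497.5 (-1.25). PAHX, phytanoyl-CoA 2-hydroxylase, had 265.9 and 242.3, then 504.6 and 437.3, against 575.4 and 559.7 (-1.14). GLX2-5 and GLX2-1, which are named after glyoxalase 2, differed by -1.36 and -1.13, and glutaredoxin C1 (GRXC1) by -1.05. GRXC1 and PAHX took most of this in the CO2 step (-0.97 and -0.87), and GLX2-1 in the light step (-0.71). The splicing-related ATU2AF35A, LIS and TGH differed by -1.06, -1.22 and -1.13, and the kinase APK1A by -1.72. The remaining ones, BUG22, FIP2, TBL37, ATCRT1, FYD, WLIM2b, TRM26, SHL1 and AR401, lay between -1.36 and -1.01.

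Gene lists of the pathways known to answer light and sugar placed these single genes in context. Each count below is of measured list members with a single gene name, and stands against 11.3% higher and 9.13% lower calls and a median of 0.03 over all tested probe sets.

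In light signalling and the clock, 4 of 22 listed genes were measured and 3 rose, with a median of 1.65. AT3G44450 is given above. AT3G52740 had 68.3 and 40.1, then 80.6 and 75.8, against 15.0 and 5.9 (1.80 ± 0.34, adjusted p = 0.0152). GI, GIGANTEA, a clock and flowering regulator, had 80.5 and 108.2, then 126.4 and 186.9, against 17.1 and 44.8 (1.5 ± 0.39, adjusted p = 0.042). The call of GI was lost with quantile normalization (1.42) and with the 4 arrays alone. With a constant of 32 AT3G52740 was at 1.01 and the list's median at 1.02. For both genes the low CO2 light arrays were the highest, and the CO2 steps were negative (-0.51 and -0.68). The photomorphogenic factor HYH overlapped between the groups, at 48.1 and 35.6 against 63.9 and 44.1. Of the 3 calls 1 held without normal CO2 light A and 1 without normal CO2 light B, and 2 without low CO2 dark A and 2 without low CO2 dark B (adjusted p up to 0.124, 0.209, 0.114 and 0.0648).

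In the starch pathway, of 25 listed genes 4 were measured and 3 rose, all through steps that each stayed under 1, with a median of 1.07. APL3, a large subunit of ADP-glucose pyrophosphorylase, which makes the sugar donor for starch, had 109.2 and 113.5, then 83.4 and 37.5, against 37.6 and 21.1 (1.73 ± 0.38). SBE2.2, a starch branching enzyme, had 523.1 and 486.4, then 449.3 and 403.0, against 236.7 and 235.3 (1.07 ± 0.13). DPE1, the disproportionating enzyme of starch breakdown, had 180.7 and 216.0, then 119.3 and 104.3, against 80.8 and 101.9 (1.06 ± 0.18). The split differed, with SBE2.2 mostly in the light step (0.83), DPE1 mostly in the CO2 step (0.79) and APL3 in both (0.84 and 0.90). PWD, phosphoglucan water dikinase, was at 0.24 without a call. The starch calls held for 1, 0, 3 and 2 genes without normal CO2 light A, normal CO2 light B, low CO2 dark A and low CO2 dark B (adjusted p up to 0.118, 0.135, 0.0498 and 0.112).

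Of 17 sucrose and sugar transport genes 3 were measured and 1 rose, with a median of 0.66. ATSPS4F, a sucrose phosphate synthase, had 257.8 and 235.7, then 383.0 and 512.3, against 66.3 and 96.6 (1.54 ± 0.22, adjusted p = 0.00708), and its adjusted p was 0.0611 without normal CO2 light A and 0.0641 without normal CO2 light B. SWEET11, a sucrose exporter, had 501.2 and 608.6 against 344.8 and 347.7, without a call (0.66 ± 0.29, adjusted p = 0.172), but was called in a fit of the 4 arrays alone. The invertase gene AT1G62660 overlapped between the groups, at 166.2 and 153.1 against 170.6 and 163.6, and stood higher in low CO2 light (249.9 and 285.5).

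Most measured genes of autophagy, chiefly those of the ATG8 family, and of amino acid breakdown fell. In autophagy, 13 of 28 listed genes were measured, 9 fell and 0 rose, with a median of -0.88. ATG8E, of the small proteins coupled to autophagosome membranes, had 187.6 and 149.3, then 926.7 and 893.3, against 793.1 and 1070.4 (-2.41 ± 0.19, adjusted p = 0.0024). ATG8H had 56.1 and 46.3, then 271.5 and 240.9, against 215.4 and 413.1 (-2.39 ± 0.30, adjusted p = 0.00512). ATG8B had 63.4 and 45.8, then 166.1 and 134.4, against 157.3 and 201.0 (-1.60 ± 0.22, adjusted p = 0.00607). The low CO2 groups overlapped for these genes, and the median of the list was -0.91 in the CO2 step and -0.04 in the light step. ATG3, which couples these proteins to lipid, was at the threshold (-0.72 ± 0.20, adjusted p = 0.0494) and lost its call with a constant of 32 (-0.64), with quantile normalization (-0.70) and without the trend. Apart from ATG3, the called genes were all of the ATG8 family, so the count speaks mainly for that family. AT3G59950 (ATG4B), AT3G18770 (ATG13B) and AT3G61960 (ATG1A) were at -0.50, -0.41 and 0.11 ± 0.14 without a call. ATG8G, at -0.55, was not called either. No member met the rule of 2 small steps, and ATG8C missed it at the edge described above. The list's calls held for 6 of 9 without normal CO2 light A, 3 without normal CO2 light B, and 7 without low CO2 dark A and 7 without low CO2 dark B (adjusted p up to 0.113, 0.23, 0.124 and 0.186).

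In amino acid breakdown, 11 of 22 were measured, 7 fell and 0 rose, with a median of -1.82 (-1.14 without low CO2 dark B). MCCA had 80.3 and 85.2, then 448.3 and 1806.1, against 905.3 and 2307.0 (-4.01 ± 0.69, adjusted p = 0.0118). IVD, isovaleryl-CoA dehydrogenase of leucine breakdown, had 58.5 and 55.1, then 612.3 and 1317.1, against 546.1 and 1443.7 (-3.81 ± 0.51, adjusted p = 0.00608). AT4G33150, the lysine-degrading LKR/SDH, had 42.4 and 50.1, then 231.2 and 341.5, against 393.0 and 562.2 (-3.16 ± 0.25, adjusted p = 0.0024). In both low CO2 groups replicate B was well above replicate A for MCCA and IVD, whereas the normal CO2 light arrays were close together. The gap showed in the list as a whole. Its summed intensity in A and B was 1150 and 1268 in normal CO2 light, then 3412 and 7429, against 3957 and 8564. The list's median was -1.30 between the A arrays and -2.28 between the B arrays. Of the other calls D2HGDH (-0.51 ± 0.14, adjusted p = 0.0483) and ETFQO (-2.32 ± 0.60, adjusted p = 0.0408) were lost with a constant of 32 (-0.40 and -2.02), and D2HGDH also with the replicate block, with the 4 arrays alone and without the trend. AT5G09300 stood the other way without a call, with 27.3 and 47.3 against 14.4 and 16.5 (0.94 ± 0.28, adjusted p = 0.0606), and passed the threshold in a fit without the trend. ALDH6B2 missed the threshold (-1.82 ± 0.56, adjusted p = 0.0693) but passed it after the filter on dim probe sets, with the block and with the 4 arrays alone. The calls held for 2 of 7 without normal CO2 light A, 1 without normal CO2 light B, 6 without low CO2 dark A and 3 without low CO2 dark B (adjusted p up to 0.167, 0.179, 0.131 and 0.199).

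AKINBETA1, a subunit of the energy-sensing kinase SnRK1, was the 1 measured gene of 12 dark and sugar-starvation markers, with 87.0 and 87.1, then 620.8 and 1236.6, against 985.0 and 1318.1 (-3.60 ± 0.32, adjusted p = 0.00287). Its call held with each of the 4 arrays left out. Of 13 genes of fatty acid breakdown and organic acids 4 were measured and 2 fell, with a median of -0.52. PPDK, pyruvate orthophosphate dikinase, had 283.5 and 236.5, then 692.4 and 1144.6, against 473.9 and 821.1 (-1.25 ± 0.33, adjusted p = 0.0444). The cytosolic isocitrate dehydrogenase cICDH had 1000.6 and 1251.1, then 947.0 and 1198.5, against 1779.0 and 1971.3 (-0.74 ± 0.19, adjusted p = 0.0392). PPDK was on average highest in low CO2 light, and lost its call with a constant of 32 (-1.17) and without the trend. For cICDH both groups in light overlapped, with the dark arrays above them. Neither call held without normal CO2 light A, without normal CO2 light B or without low CO2 dark B, and 1 held without low CO2 dark A (adjusted p up to 0.191, 0.212, 0.174 and 0.0964).

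All 6 measured of 12 nucleolar ribosome assembly genes rose, with a median of 1.51. AT3G15460 had 70.7 and 97.3, then 20.7 and 11, against 21.5 and 8.6 (2.08 ± 0.37, adjusted p = 0.0132, and 1.31 with a constant of 32). AT1G52930 had 267.0 and 344.3, then 82.8 and 77.1, against 89.1 and 99.3 (1.62 ± 0.17, adjusted p = 0.00361). AT3G05060 had 274.6 and 245.8, then 96.5 and 59.0, against 75.8 and 88.5 (1.58 ± 0.23, adjusted p = 0.00769). The normal CO2 light arrays stood alone, and the median was 1.78 in the CO2 step and -0.20 in the light step. AT5G14520, pescadillo, was lowest in low CO2 light, with 246.6 and 293.5, then 77.6 and 73.8, against 136.1 and 139.5 (0.93 ± 0.14). AT1G52930, AT2G40360 and AT5G15550 were also lowest there, with light steps of -0.22, -0.60 and -0.19 beside -0.81 for pescadillo. AT3G15460 and AT3G05060 overlapped between the low CO2 groups. Of the 6 calls 2 held without normal CO2 light A, 1 without normal CO2 light B, 4 without low CO2 dark A and 3 without low CO2 dark B (adjusted p up to 0.0924, 0.127, 0.0898 and 0.0751).

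Of 5 core histone genes, all of H2B except HTR12, 3 rose, with a median of 0.83. The 3 were all H2B genes, so the count does not speak for the other core histones. HTB1, an H2B gene, had 202.7 and 252.7, then 81.9 and 58.8, against 55.9 and 48.6 (1.97 ± 0.21, adjusted p = 0.00361). HTB2 had 216.1 and 192.0, then 81.5 and 47.8, against 64.5 and 45.6 (1.78 ± 0.27, adjusted p = 0.0084). HTB4 had 670.4 and 618.0, then 444.7 and 316.0, against 341.5 and 375.9 (0.83 ± 0.19, adjusted p = 0.0259). HTB11 and HTR12 were at 0.59 and 0.55 without a call, and without dim probe sets the median was 1.3. The calls held for 1, 1, 2 and 2 genes without normal CO2 light A, normal CO2 light B, low CO2 dark A and low CO2 dark B (adjusted p up to 0.138, 0.116, 0.108 and 0.0829).

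Both measured genes of 11 in flavonoid and anthocyanin synthesis rose, with a median of 2.39. DFR, dihydroflavonol reductase, had 235.6 and 156.6, then 59.2 and 20.5, against 38.3 and 22.6 (2.43 ± 0.45, adjusted p = 0.015). UF3GT, a glycosyltransferase of the pathway, had 121.8 and 67.1, then 23.6 and 7.2, against 13.9 and 10.4 (2.34 ± 0.43, adjusted p = 0.0145, and 1.48 with a constant of 32). Neither held its call without normal CO2 light A, without normal CO2 light B or without low CO2 dark B, and 1 held it without low CO2 dark A (adjusted p up to 0.103, 0.0785, 0.0758 and 0.0506). Of 7 sulfate assimilation genes 2 were measured, with a median of 1.16. APS3, an ATP sulfurylase, rose, with 243.9 and 266.2 against 74.9 and 71.8 (1.70 ± 0.19, adjusted p = 0.00411, and 0.0529 without normal CO2 light B). SIR, sulfite reductase, had 648.0 and 709.3, then 340.2 and 200.9, against 415.0 and 467.5, without a call over the whole difference (0.61 ± 0.25, adjusted p = 0.138) except in a fit of the 4 arrays alone.

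AT5G41670, of the oxidative pentose phosphate list, rose by 1.78 ± 0.16 (adjusted p = 0.00289), with 269.5 and 300.4, then 60.3 and 57.9, against 87.0 and 69.0, while the other 2 measured of 6 were not called (list median 0.52, and 0.34 without normal CO2 light B). XTH16, an enzyme that remodels xyloglucan in the wall, had 151.2 and 148.8, then 77.1 and 87.7, against 33.2 and 32.2 (1.98 ± 0.15, adjusted p = 0.0024), and was the 1 call among 4 measured of 10 cell wall growth genes (median 0.55, 0.86 without dim probe sets, 0.97 without low CO2 dark A and 0.20 without low CO2 dark B). Both calls held with each of the 4 arrays left out. EXPA8 had 210.2 and 189.1 against 178.5 and 62.1, a spread too wide for a call (adjusted p = 0.412).

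Of 11 stress and senescence regulators and scavengers 4 were measured, 1 rose and 2 fell, with a median of -1.35, and -0.80 with a constant of 32. STZ, a zinc-finger repressor, had 18.6 and 16.9, then 130.5 and 172.2, against 91.5 and 119.6 (-2.16 ± 0.21, adjusted p = 0.00322). WRKY6, a senescence-linked factor, had 11.5 and 8.2, then 51.7 and 65.5, against 31.1 and 54.5 (-1.51 ± 0.29, adjusted p = 0.0164, and -0.82 with a constant of 32). SAPX, a stromal ascorbate peroxidase, rose, with 239.6 and 376.3, then 114.0 and 105.1, against 85.3 and 88.6 (1.71 ± 0.22, adjusted p = 0.00552). WRKY53 missed the threshold (-1.18 ± 0.34, adjusted p = 0.0565), but passed it with a constant of 1 (-1.36), with a common median (-1.28), after the filter on dim probe sets and with the 4 arrays alone. Of the 3 calls 2 held without normal CO2 light A, 2 without normal CO2 light B, 3 without low CO2 dark A and 2 without low CO2 dark B (adjusted p up to 0.0711, 0.107, 0.0281 and 0.078).

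Few genes of the photosynthetic machinery passed the threshold between these extremes. Of 37 light-harvesting and photosystem genes 6 were measured, and 1 rose: LHCB4.3 had 612.1 and 708.1, then 740.7 and 1085.5, against 352.2 and 376.2 (0.84 ± 0.20, adjusted p = 0.0336). The relatives LHCB4.1 and LHCB4.2 were at -0.01 ± 0.18 and -0.20 ± 0.16, and the list's median of 0.01 ran from -0.09 to 0.07 over all settings. In the Calvin-Benson cycle 0 of 4 measured of 20 were called (median 0.23), with SBPASE at 0.36 ± 0.15 and AT5G64380 at 0.24 ± 0.13 (adjusted p = 0.163 and 0.256). In photorespiration AT1G11860 rose by 0.62 ± 0.14 (adjusted p = 0.0257), 1 of 3 measured of 14 (median 0.15). Of 69 plastid-encoded genes 1 rose, psbB of photosystem II, with 249.8 and 258.0 against 167.5 and 167.0 (0.58 ± 0.13, adjusted p = 0.024), and all 69 lay between -0.52 and 0.63 with a median of 0.03, which ran from -0.07 to 0.05 over all settings. The calls of LHCB4.3, AT1G11860 and psbB were each lost without any 1 of the 4 arrays, with adjusted p of 0.0885 to 0.18, and also with a common median (0.74, 0.52 and 0.48). With few nuclear genes of each pathway measured by name and a bright signal, these lists speak for those genes alone.

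The 4 measured reference genes of 8 gave a scale for small differences. PEX4 was at -0.46 ± 0.16 (adjusted p = 0.0898), AT2G28390 at -0.31 ± 0.16, AT4G34270 at -0.12 ± 0.20 and AT4G26410 at 0.12 ± 0.13. None was called and the median was -0.22, though PEX4 passed the threshold with a common median (-0.56) and with the replicate block. AT4G34270 and AT4G26410 overlapped between the groups. Lists of nitrate assimilation and the cell cycle, and of flower, seed and vasculature markers, had no member measured by a single gene name.

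**Figure D4:**
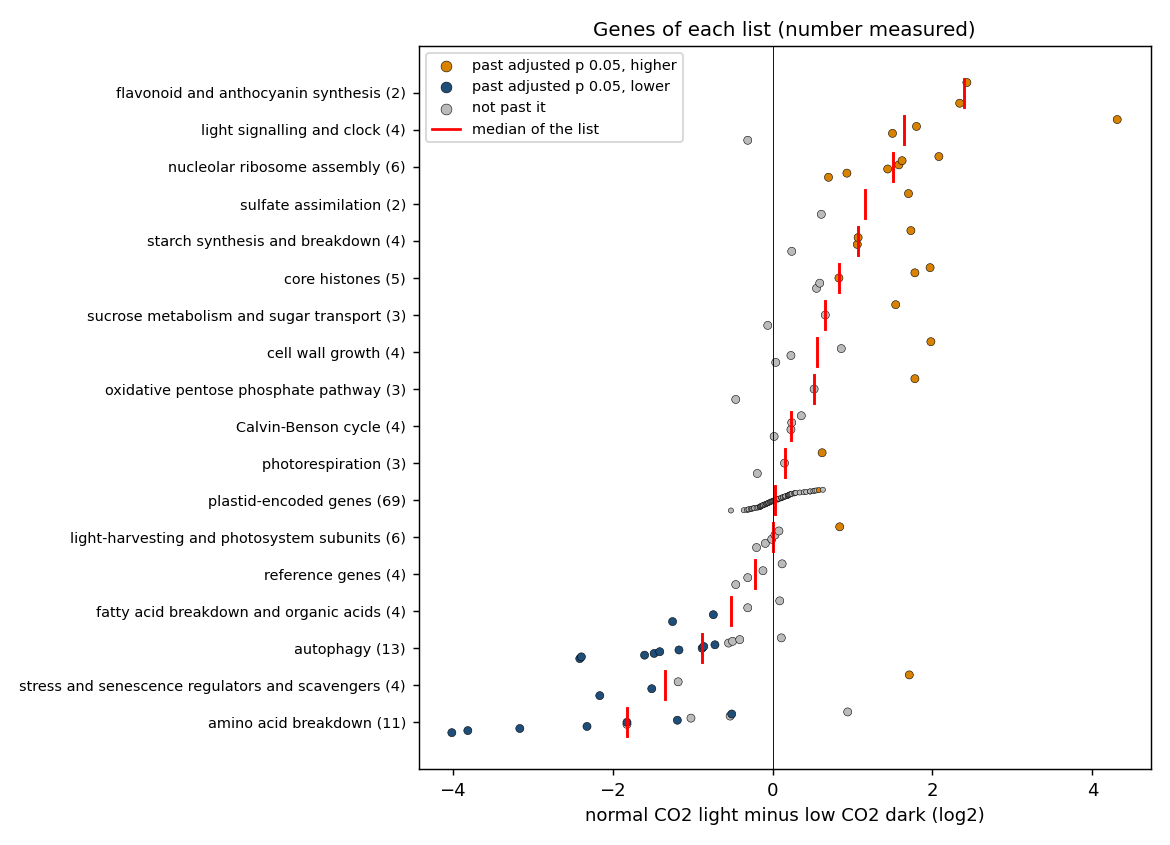
Log2 difference, normal CO2 light minus low CO2 dark, of each measured gene of each list with at least 2 measured genes. Orange and blue points are higher and lower calls, grey points are not called, and the red line is the list's median, from 2.39 for flavonoid and anthocyanin synthesis to -1.82 for amino acid breakdown.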

How the data were processed

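Per the labels, biotin-labelled RNA of 6 rosette samples was hybridised to single-colour Affymetrix arrays. The authors deposited a linear intensity for each probe set. The submitters' processing notes name MAS5, with no version or scaling target in the sources used here. The trimmed mean intensity (2% at each end) was 100.01 on every array, so no normalization was added. Single-colour arrays hold no counts, and the number of arrays limits the precision. All 6 arrays, in 3 groups of 2, were fitted with limma 3.58.1 in R 4.3.3 (group means, eBayes with trend, 3 residual and 3.27 prior degrees of freedom) on log2(intensity + 7.3), the constant being the 20th percentile of all intensities. P-values were adjusted by Benjamini-Hochberg over 22746 probe sets, without 64 controls. The script was checked on simulated data.

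Gene names came from the platform annotation: 13513 probe sets had 1 symbol, 503 several and 8730 none. Of these, 13436 were matched by Entrez ID to the TAIR10.1 table, used for names alone. A gene on several probe sets was represented in the lists by its brightest. The genes named were the 10 largest rises and falls, the 10 of each direction with the smallest adjusted p among genes with 2 small steps, up to 3 called genes per list (the 2 with the smallest p where none was called), and all reference genes. Genes with 2 small steps that carry a name, further members of the lists and the symbol families of the closing section were added after their values were seen. The comparison and all lists were chosen with earlier results of these data known. Families of cytosolic ribosomal proteins and aminoacyl-tRNA synthetases could not be read from the symbols and are not described. Alternatives were other constants, quantile normalization, a common median, a filter on dim probe sets, a replicate block, the 4 arrays alone, no trend, other step limits and leaving out each array. An item of the data is not reported here.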

Additional observations from a re-analysis of the deposited data

How the results depend on the processing

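The calls depended most on whether 1 of the 4 compared arrays was left out, which leaves a single array in its group. Over leaving out each of the 6 arrays, higher calls ranged from 263 to 2557 and lower calls from 313 to 2138, with counts near those of the report when a low CO2 light array was left out (2557 higher in both cases), and the genes with 2 small steps from 57 to 554 (higher) and from 62 to 477 (lower). With a constant of 32 the higher genes with 2 small steps numbered 279. With both limits of that rule at 1.5 they numbered 209 higher and 237 lower. The letters A and B are not said to pair samples: deviations of same-lettered arrays correlated at 0.159 between normal CO2 light and low CO2 dark, 0.0153 between normal and low CO2 light, and 0.307 between low CO2 light and low CO2 dark. The bioC hybridisation control was 66.3 to 73.8 on A arrays and 116.2 to 157.3 on B arrays. With the replicate block there were 2902 higher and 2350 lower calls, and 488 and 478 genes with 2 small steps. Under the other settings every count stayed within 1.5 times that of the report; a common median gave 2139 higher and 2539 lower. Of 253 single-gene results no called one changed direction, and of the 144 called, 0 to 4 lost the call under each setting that kept the 4 compared arrays, while 0 to 6 others gained one. How far the calls lost on leaving out an array go with the single array left in its group, or with the array removed, was not tested. Signal near the added constant limits dim genes such as AT1G06000.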

Other observations

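Families of genes sharing a symbol, with at least 6 named members each, add to the picture. They were formed after the data were seen and have no test as groups. Among 13355 named genes 9.94% were higher and 8.39% lower over the whole difference. Of 12 ubiquitin-specific proteases (UBP), which remove ubiquitin, 3 rose and 0 fell, with a median of 0.13. UBP21 had 83.8 and 96.9 in normal CO2 light, 30.0 and 20.7 in low CO2 light, and 18.1 and 3.7 in low CO2 dark (2.54 ± 0.41, adjusted p = 0.0095). Of 10 VPS genes of vacuolar sorting 3 fell: VPS20.1, VPS60.1 and VPS22, by 1.42, 1.17 and 0.51. Of 6 WRKY factors 3 fell, led by WRKY22 with 20.3 and 15.8, then 30.7 and 75.8, against 90.8 and 115.1 (-2.12 ± 0.38, adjusted p = 0.0132). The UBP calls held for 0 of 3 without normal CO2 light A, 0 without normal CO2 light B, 1 without low CO2 dark A and 1 without low CO2 dark B (adjusted p up to 0.208). In the same order the VPS calls held for 0, 0, 2 and 1 of 3 and the WRKY calls for 0, 0, 2 and 0 of 3 (adjusted p up to 0.163 and 0.144).

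Sugar carriers and sugar-transferring enzymes moved as single genes. SWEET17, a fructose carrier of the vacuole, had 462.3 and 489.0, then 267.0 and 160.2, against 137.0 and 133.4 (1.76 ± 0.23, adjusted p = 0.00585). SWEET13, a sucrose carrier, had 74.2 and 51.0, then 25.9 and 15.0, against 22.3 and 9.6 (1.62 ± 0.36, adjusted p = 0.026). They were the 2 calls among 14 SWEET genes, and 0 held without normal CO2 light A, 0 without normal CO2 light B, 2 without low CO2 dark A and 1 without low CO2 dark B. Of 47 UGT glycosyltransferases 4 rose and 4 fell. UGT78D1, which puts rhamnose on flavonols, had 265.0 and 265.8, then 118.0 and 44.3, against 84.3 and 53.8 (1.87 ± 0.42, adjusted p = 0.0264), and UGT74B1, of glucosinolate synthesis, had 562.3 and 595.8, then 197.1 and 89.1, against 177.5 and 114.7 (1.96 ± 0.37, adjusted p = 0.0155). UGT73B1 had 25.3 and 19.7, then 292.1 and 218.6, against 149.1 and 534.9 (-3.30 ± 0.54, adjusted p = 0.0102). The UGT calls held for 0, 0, 5 and 3 of 8 without normal CO2 light A, normal CO2 light B, low CO2 dark A and low CO2 dark B (adjusted p up to 0.195).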
